A study of Kryptolebias marmoratus with 5 samples.

Results

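The comparison set phenotypically normal siblings of the *shorttail* (*stl*) line of the mangrove killifish, *Kryptolebias marmoratus*, against wild-type (WT) embryos, gene by gene. Both pools held embryos without a tail defect, so the comparison asks how far a mutagenized line differs from WT before any mutant phenotype is considered. Genes entered it when their mean level over the 5 libraries of the series reached 2 CPM, which left 15362 of 22090 genes. CPM are the estimated reads of a gene in proportion to the size of its library, scaled here by TMM, a factor that keeps the bulk of the genes level between libraries.

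*K. marmoratus* is a vertebrate whose hermaphrodites fertilize their own eggs, so each laboratory line is close to isogenic and alleles that differ between lines are mostly homozygous. ENU is a chemical mutagen that leaves point mutations scattered over the genome, and a line founded from a mutagenized fish can carry many of them beside the allele for which it is kept. At the stage sampled the somites are forming: their cells switch on myogenic regulators and then the proteins of the sarcomere, while the tail bud at the posterior end still adds new notochord, somite and spinal cord. Pigment cells, blood and the yolk syncytial layer, which makes plasma proteins for the early embryo, are also present.

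The *stl*-sibling library was made from normal-looking embryos of the ENU-induced line R109, and the WT library from the parental strain *Hon9*. Siblings were sorted by eye, so the pool may mix homozygous wild-type and heterozygous embryos in a proportion that was not analysed here. The 3 other libraries of the series, used only as points of comparison, held *stl* mutants, normal siblings of the *balltail* (*btl*) line and *btl* mutants. Each library was 1 pool of 20 to 25 whole embryos kept at 26 °C and given as stage 17, with stages 16 and 18 possible, although a later somite stage is named elsewhere in the study's text. There was 1 library per group, so no difference below has a replicate check, no p-value is given, and line, embryo age and library preparation cannot be told apart within this pair. Because whole embryos were sequenced, fewer cells of a type and less RNA per cell cannot be told apart either.

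The libraries were alike in size. The *stl*-sibling library held 11849426 estimated reads and the WT library 11817725, and the other 3 held from 9147625 to 12220249. Mitochondrial genes took 2.08% of the reads in *stl*-sibling and 2.57% in WT. Genes of the tail bud and of its derivatives were read in both. *noto*, a homeobox regulator of the notochord, had 92 reads in *stl*-sibling and 93 in WT, and *tbxta*, the T-box gene of notochord and tail bud, had 269 and 251 reads in the same order. *msgn1* and *tbx6*, regulators of presomitic mesoderm, had 89 and 157 reads in *stl*-sibling against 110 and 140 in WT, and *sox3*, a neural progenitor gene, had 1830 against 1551. None of these 5 genes was 2-fold different.

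Most genes had close levels in the 2 libraries. The middle 95% of the differences between *stl*-sibling and WT, on the log2(CPM + 0.5) scale, ran from -0.67 to 0.71, the quartiles were -0.20 and 0.18, and the median was -0.01. A gene was called when it differed at least 2-fold on that scale. This gave 137 genes higher in *stl*-sibling (0.892% of those tested) and 126 lower (0.820%), or 1.71% in all. With the TPM that Salmon reports in place of CPM the split was 145 higher and 84 lower, and the median of all genes shifted to 0.12. At 4-fold, 32 genes were higher (0.208%) and 30 lower (0.195%). The genes nearest the 2-fold line were *timp2a* at 1.0025 inside it and *actn3b* at 0.9995 outside it on the high side, and *LOC108238600* at -1.0025 inside and *lrrc29* at -0.999 outside on the low side. Of the 263 called genes, 118 had an exact 95% Clopper-Pearson interval of the read ratio that lay wholly beyond 2-fold. These intervals, and those quoted for single genes below, cover counting error only.

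**Figure D1:**
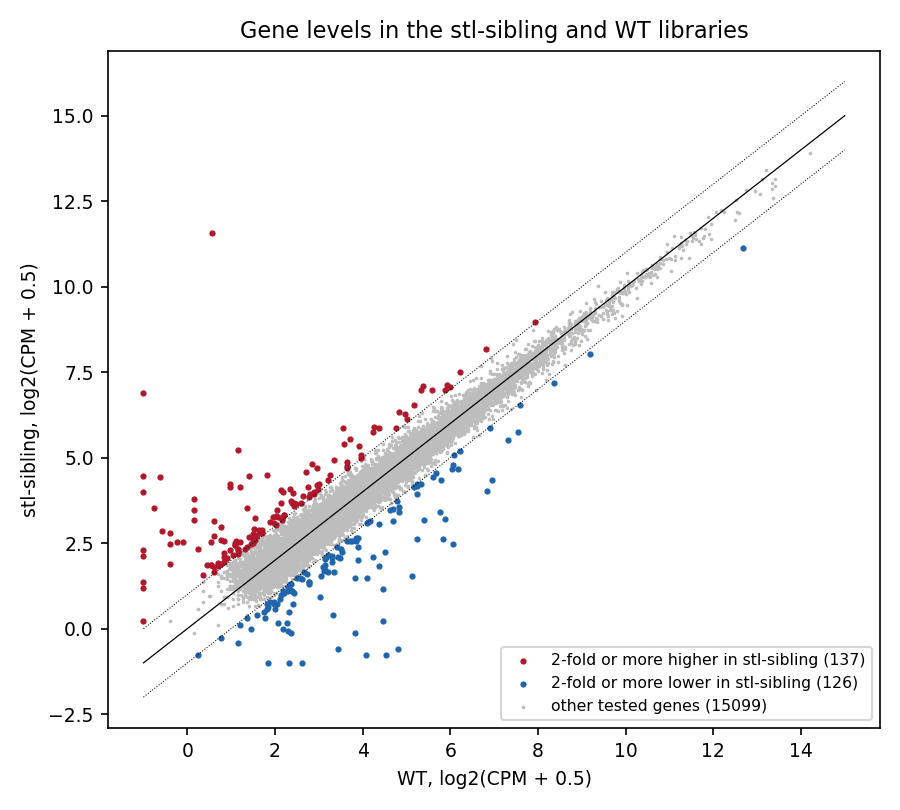
Level of each of the 15362 tested genes in *stl*-sibling (vertical axis) and WT (horizontal axis), both as log2(CPM + 0.5), with 1 point per gene. The solid line marks equal levels and the dotted lines 2-fold; 137 genes lie above the upper dotted line (red) and 126 below the lower (blue), and genes with no read in a library line up at the edge of the cloud.

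A second pair of libraries, *stl* mutants against *btl*-siblings, shares no library with *stl*-sibling against WT and also sets the *stl* line against embryos from outside it. Its *stl* library holds mutant embryos, so that pair mixes line and phenotype. In it 506 genes were called (3.29%), those higher in *stl* making up 1.48% of the tested genes and the 278 lower ones 1.81%. Of the 137 genes higher in *stl*-sibling than in WT, 51 (37.2%) were also at least 2-fold higher in *stl* than in *btl*-sibling, 3 were at least 2-fold lower and 83 were under 2-fold. Of the 126 genes lower in *stl*-sibling, 59 (46.8%) were also lower in *stl*, 5 were higher and 62 were under 2-fold. Among all tested genes the shares were 1.48% and 1.81%. Among the genes past 4-fold, 22 of the 32 higher and 25 of the 30 lower ones were at least 2-fold different the same way in the second pair. In total 110 of the 263 called genes (41.8%) differed the same way in both pairs. The 2 CPM filter used all 5 libraries, so some genes low in *stl*-sibling and WT entered through reads of the other libraries. With the filter on *stl*-sibling and WT alone 244 of the 263 calls remained, and the shared count was not recomputed.

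**Figure D2:**
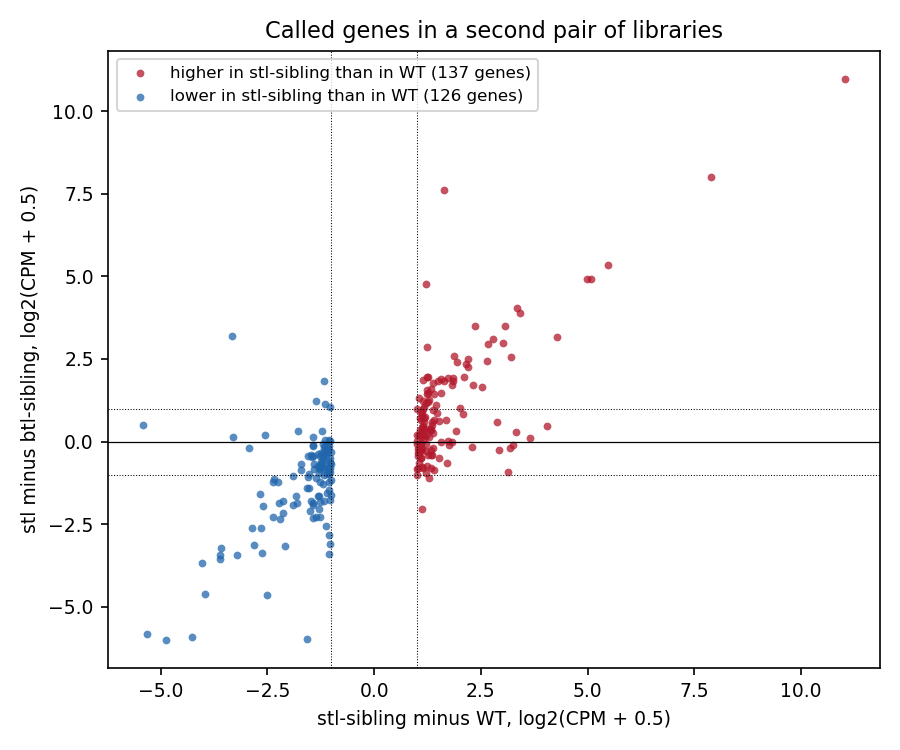
The 263 called genes, with *stl*-sibling minus WT on the horizontal axis and *stl* minus *btl*-sibling on the vertical axis, both as differences of log2(CPM + 0.5) and with dotted lines at 2-fold. Of the red genes 51 of 137 lie above the upper horizontal line, and of the blue genes 59 of 126 below the lower; several genes far out on the horizontal axis sit near 0 on the vertical one.

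The called genes were mostly without a gene symbol shared with other fish. Identifiers of the LOC type made up 57.4% of the called genes and 65.5% of the 110 that repeated in the second pair, against 26.2% of all tested genes. Where such a gene is given a name below, it is the product description in the deposited tables.

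The largest differences were close to presence against absence. Among the 12 highest fold changes, 8 genes were at least 2-fold higher in *stl* than in *btl*-sibling, and among the 12 lowest, 9 were lower. *LOC108249405*, a lectin similar to nattectin, a C-type lectin of toadfish venom, stood first. It lies on linkage group 8 at positions 29270680 to 29273817 of ASM164957v2. It had 37106 reads in *stl*-sibling against 11 in WT, and 34687 in *stl* against 12 in *btl*-sibling, with 3 in *btl*. The read ratio of *stl*-sibling to WT was 3209 (95% interval 1793 to 6428). Both libraries of the *stl* line held the gene at high level, and the other 3 libraries held 12 reads or fewer.

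Several other genes were read in the *stl* line and hardly or not at all outside it. *LOC108251661*, a G2/M phase-specific E3 ubiquitin-protein ligase by description, on linkage group 9, had 1438 reads in *stl*-sibling and 0 in WT. It had 1513 reads in *stl* and 0 in both *btl*-sibling and *btl*. With WT set to a floor of 3 reads *stl*-sibling was 456-fold higher, a value that depends on the floor. *LOC108249363*, the accessory protein of the interleukin-18 receptor, a chain of a cytokine receptor on immune cells, had 264 reads in *stl*-sibling against 0 in WT. It had 233 in *stl* against 0 in *btl*-sibling, and with the same floor was 84-fold higher in *stl*-sibling than in WT. *LOC108251266*, similar to the DNA repair enzyme tyrosyl-DNA phosphodiesterase 2, had 187 against 0 reads in the first pair and 203 against 1 in the second. *LOC108228816*, which has no description in the files, had 258 against 2 and 223 against 2, a ratio of 123 (34 to 1019) in *stl*-sibling against WT. For these 4 genes the reads of *stl*-sibling and *stl* differed little, and those of WT, *btl*-sibling and *btl* were all at 2 or fewer.

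The group with a known symbol was smaller. *foxj2*, a forkhead transcription factor on linkage group 16, had 267 reads in *stl*-sibling against 35 in WT, and 290 in *stl* against 35 in *btl*-sibling, a ratio of 7.26 (5.09 to 10.6) in the first pair. *mylk4a*, of the myosin light chain kinase family, had 133 against 1 and 63 against 2 reads, and *syt9b*, a synaptotagmin, one of the calcium sensors of vesicle release, had 130 against 7 and 123 against 2. All 3 genes were also low in *btl*, with 29, 0 and 3 reads. *abcc12*, an ABC transporter, had 103 against 7 and 70 against 4 reads. A tetraspanin similar to CD63, *LOC108247818*, had 265 against 25 and 250 against 18. Both were higher in the *stl* line by over 4-fold in each pair. The cone photoreceptor channel subunit beta-3 was covered by a pair of neighbouring genes on linkage group 21, *LOC108245435* with 335 against 78 reads and *cngb3.1* with 90 against 14 in *stl*-sibling against WT. In *stl* against *btl*-sibling they had 374 against 72 and 114 against 21, so the neighbours kept the same direction and a similar size.

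Genes low in the *stl* line included genes of immunity. *LOC108248495*, described as NLRC5, which in mammals activates MHC class I genes, had 29 reads in *stl*-sibling against 399 in WT, and 20 in *stl* against 296 in *btl*-sibling, 14.5-fold lower in *stl*-sibling (9.92 to 21.9). The common gamma chain of cytokine receptors, *LOC108238928*, had 0 against 65 reads in the first pair and 1 against 81 in the second, at least 22.8-fold lower with *stl*-sibling at the floor. These genes lie on linkage groups 23 and 13, and *btl* held 162 and 49 reads of them, as the other libraries outside the *stl* line did. Among 20 tested interferon response genes 1 was higher and 1 lower, against 0.892% and 0.820% of all tested genes. The list had *irf7*, a regulator of type I interferon, higher with 148 against 57 reads, *irf9*, another interferon regulatory factor, lower with 20 against 51, and a median of -0.20, against -0.01 for all genes. *irf7* had 141 reads in *stl* against 65 in *btl*-sibling and *irf9* 14 against 46, so each kept its direction in the second pair.

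Other genes low in the *stl* line had enzyme or chromatin roles. *LOC112451230*, leishmanolysin-like peptidase 2, a metalloprotease, had 8 against 250 reads in *stl*-sibling against WT and 5 against 705 in *stl* against *btl*-sibling. *LOC108248366*, adenylate cyclase type 1, an enzyme that makes cyclic AMP, had 2 against 120 and 5 against 144. *LOC108245934*, the deubiquitinating enzyme USP48, had 192 against 1326 and 202 against 1964, and *LOC108228757*, the survival motor neuron protein that helps assemble splicing particles, had 123 against 625 and 115 against 638. Every one of these 4 genes was lower in the first library of each pair by over 4-fold. *hmga1a*, an architectural chromatin protein, had 46 against 211 and 48 against 254 reads. *LOC108228385*, similar to low choriolytic enzyme, which helps digest the egg envelope at hatching, had 0 against 36 and 1 against 40. The uncharacterized genes *LOC119616983* and *LOC119617331* were at 1 read each in *stl*-sibling, against 264 and 191 in WT, and at 0 in *stl*, against 361 and 405 in *btl*-sibling. In all 51 called genes were at least 4-fold different the same way in the second pair, 23 higher and 28 lower, where the shares of all tested genes past 4-fold were 0.325% higher and 0.404% lower. Some of the lower ones, *LOC108228385* among them, passed the filter over the 5 libraries through *btl*-line reads. For such genes the filter favoured a repeat.

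**Figure D3:**
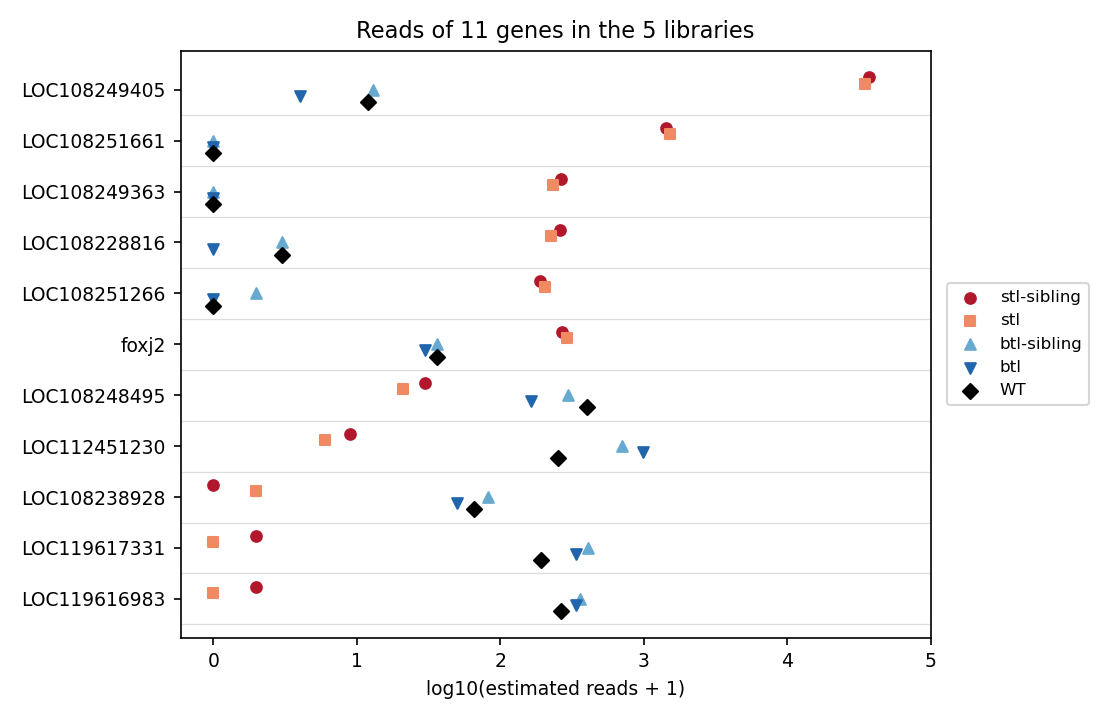
Estimated reads, as log10(reads + 1), of 11 genes in the 5 libraries, 1 point per library. For the upper 6 genes *stl*-sibling and *stl* stand to the right of *btl*-sibling, *btl* and WT, with up to 37106 reads in *stl*-sibling, and for the lower 5 they stand to the left.

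Another set of called genes was set apart in WT and not in the *stl* line. *pax5*, a transcription factor of the midbrain-hindbrain boundary, had 37 reads in *stl*-sibling against 234 in WT, a 6.65-fold lower level (4.69 to 9.68), while *stl*, *btl*-sibling and *btl* held 50, 47 and 15. *hbae5*, an embryonic alpha globin in zebrafish, had 554 against 1836 reads, with 634 in *stl*, while *btl*-sibling held 546 and *btl* 1290. *LOC108245851*, without a description, had 2 against 319, with 5, 2 and 1 in the same 3 libraries. For these genes *stl*-sibling stood with *btl*-sibling, but for *hbae5* WT did not stand alone, at 158.6 CPM beside 154.2 CPM in *btl*. In the opposite direction *LOC108235835*, a sodium/bile acid cotransporter, had 221 reads in *stl*-sibling against 17 in WT, with 282, 329 and 425 in *stl*, *btl*-sibling and *btl*. The uncharacterized *LOC112450623* had 445 against 20, with 456, 359 and 246, and *LOC108243054*, described as splicing factor-like protein 1, had 54 against 0, with 176, 155 and 188. All 4 libraries from the mutagenized lines were above WT for these 3 genes. Chosen after its values were seen, *dchs2*, a large protocadherin, had 207 reads in *stl*-sibling against 21 in WT, with 184, 240 and 179 in *stl*, *btl*-sibling and *btl*. *btl*-sibling against WT, which uses the same WT library, had 102 genes higher (0.664%) and 107 lower (0.697%), 1.36% in all.

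Other called genes had other arrangements over the 5 libraries, and 8 of the 263 were at least 2-fold different the opposite way in the second pair. *LOC108242440*, described as dihydroxyacetone phosphate acyltransferase, a peroxisomal enzyme of ether lipid synthesis, had 0 reads in *stl*-sibling against 52 in WT, but 49 in *stl* against 0 in *btl*-sibling and 59 in *btl*. *LOC108228815* on linkage group 12 was higher in both pairs, but WT also stood apart from the *btl* line. It had 1517 against 462 reads, 3.12-fold higher in *stl*-sibling, with 1395 in *stl*, while *btl*-sibling held 1 and *btl* 0. It neighbours *LOC108228816*, which was at 2 reads in WT, so the neighbours shared the high level in *stl*-sibling and the low level in the *btl* line, and differed in WT.

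Skeletal muscle was the tissue with most called genes. Its proteins assemble into sarcomeres, in which myosin thick filaments slide along actin thin filaments anchored at Z-discs, fired by calcium released from internal stores. Over 5 lists that cover these parts and muscle energy metabolism, 104 of 208 genes were tested. Of them 10 were at least 2-fold higher in *stl*-sibling, against 0.892% of all tested genes, and 2 lower, while 81 of the 104 lay above 0, against 49.0% of all genes. Their median was 0.39, against -0.01 for all genes, and 0.41 after the trend with coding length described below was removed. The summed level was 7006 CPM in *stl*-sibling and 6132 in WT. With only genes whose interval lay beyond 2-fold, *mylk4a* and *myhb* remained of the 10. The shares of all tested genes, 0.892% higher and 0.820% lower, apply to each list below. In a short list no called gene, or a single one, lies near them.

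Thick filament genes led. Of 21 tested, 5 were higher, 1 lower and 18 above 0, with a median of 0.85. *myhb*, a fast myosin heavy chain, had 1698 reads in *stl*-sibling against 698 in WT, 2.31-fold higher (2.12 to 2.53). *myom2a*, of the M-band that crosslinks the thick filaments, had 841 against 369, and the myosin light chain *mylz3* 117 against 48. The fifth after *mylk4a* and these was *obscnb*, a giant sarcomere protein, with 378 against 175. *mybphb*, a myosin-binding protein, ran the other way with 138 reads in *stl*-sibling against 326 in WT, and 75 in *stl* against 422 in *btl*-sibling. The 2 titin genes, which span the sarcomere like springs, stayed just under 2-fold, *ttn.1* with 899 against 444 reads and *ttn.2* with 715 against 376. Myosin genes resemble each other in sequence, so reads may have been assigned between them.

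The other muscle lists moved less. Among 19 thin filament genes *acta1b*, a skeletal alpha actin, had 6067 reads in *stl*-sibling against 2832 in WT, 2.04-fold higher (1.95 to 2.13), and *lmod3*, a leiomodin that nucleates actin, had 62 against 26. The median of that list was 0.39. No gene of 25 in the Z-disc list was called, and its median was 0.28. Among 20 calcium handling genes *atp2a1l*, a calcium pump of the sarcoplasmic reticulum, had 1532 against 675 reads and the median was 0.43. Among 19 energy genes *ckmb*, the muscle creatine kinase, had 1632 against 727 and *gpib*, a glucose phosphate isomerase, 325 against 138, while *mb*, myoglobin, was lower with 66 against 160, and the median was 0.08. Thus the listed genes of contraction stood higher in *stl*-sibling than in WT more often than those of energy supply, a difference that was not tested.

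Genes that control muscle formation stood the same way, with a median close to the 0.39 of the 5 muscle lists together. Of 22 myogenic regulators, 21 lay above 0 with a median of 0.38, and 1 was called higher, against 0.892% of all tested genes. *vgll2a*, a muscle cofactor of TEAD factors, had 108 reads in *stl*-sibling against 28 in WT. *myog*, the myogenin gene that starts terminal differentiation, had 256 against 129, a difference of 0.89, while *myf5*, expressed earlier in the lineage, had 176 against 144. All 11 tested genes of the neuromuscular junction lay above 0, between 0.14 and 0.68, and none was called. Both lists were also above 0 in *btl*-sibling against WT, which uses the same WT library. There all 22 regulators lay above 0 with a median of 0.28, and 10 of the 11 junction genes with a median of 0.32. *hsp90aa1.1*, the chaperone of myosin folding in zebrafish muscle, had 1837 against 1006 reads, and the related gene *hsp90aa1.2* had 2049 against 2714. The 2 genes lie close together, within 14715192 to 14724769 of linkage group 19. Whether reads were assigned between them was not tested.

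The muscle genes were also read in the other normal pool. Their summed level in *btl*-sibling was 6027 CPM, below both *stl*-sibling and WT. In *btl*-sibling against WT the median of the 104 muscle genes was 0.10, and 5 were at least 2-fold higher, against 0.664% of all genes, while 60 of the 104 lay above 0. With *btl*-sibling in place of WT as the reference for *stl*-sibling, 4 of the 104 muscle genes were higher and the median was 0.27. Of all 15362 tested genes, 165 were higher with that reference. The *stl* mutants, whose muscle list had a median of -0.67 against their own siblings, cannot serve as a second sample of the line here. Their list was at -0.39 against *btl*-sibling, with 2 genes higher and 9 lower, against 1.48% and 1.81% of all tested genes. For *myhb* the libraries of normal embryos had 1698 reads in *stl*-sibling, 1518 in *btl*-sibling and 698 in WT, and *acta1b* had 6067, 3837 and 2832 in the same 3 libraries.

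**Figure D4:**
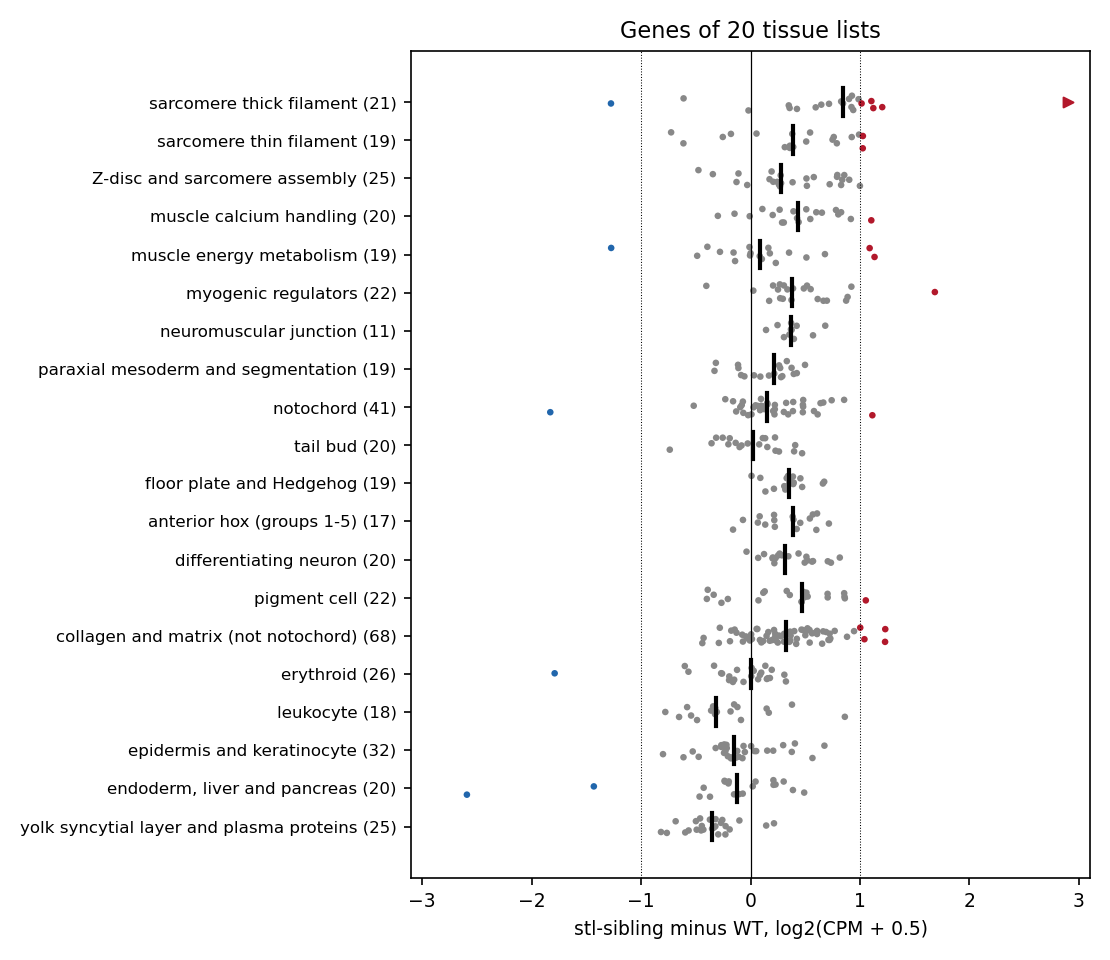
Difference of *stl*-sibling minus WT in log2(CPM + 0.5) for the tested genes of 20 lists, with the number tested in brackets, 1 point per gene, red and blue for genes at least 2-fold higher and lower, and a black bar at the list median. The triangle is *mylk4a* at 4.28, off the axis; the thick filament median of 0.85 lies farthest right, and that of yolk syncytial layer and plasma proteins, -0.35, farthest left.

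Pigment cells gave another tissue list with a median above that of all genes. Melanin is made in melanosomes by enzymes of which tyrosinase catalyses the first step. Of 22 tested pigment genes 17 lay above 0 in *stl*-sibling against WT, with a median of 0.47. Of the 22, 1 was called higher, against 0.892% of all tested genes. It was *tyr*, tyrosinase, with 181 reads in *stl*-sibling against 80 in WT. In *stl* against *btl*-sibling 18 of the 22 lay above 0, the median was 0.72 and 8 were at least 2-fold higher, against 1.48% of all genes. There *tyr* had 172 reads in *stl* against 71 in *btl*-sibling. In *btl*-sibling against WT the median was -0.30 and 4 of 22 lay above 0.

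The melanosome genes carried this pattern. Chosen after their values were seen, *pmela*, the fibril protein of melanosomes, had 1084 reads in *stl*-sibling against 630 in WT and 1324 in *stl* against 538 in *btl*-sibling. *oca2*, a melanosome membrane protein, had 62 against 30 and 64 against 11, and *dct*, dopachrome tautomerase, had 389 against 258 and 469 against 208. *slc45a2*, a melanosome transporter, had 85 against 42 and 79 against 37. None of these 4 reached 2-fold in *stl*-sibling against WT, and all 4 did in the second pair. *gart*, *paics* and *atic*, purine synthesis enzymes that pigment cells share with every dividing cell, were lower in *stl*-sibling, with differences of -0.40, -0.27 and -0.39. Since they hold most of the reads of the list, its summed level ran the other way, 1586 CPM in *stl*-sibling and 1833 in WT. The *mitfa* gene, regulator of the melanocyte fate, had 57 against 41 and 56 against 29 reads.

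The *hox*, tail bud, segmentation and cell cycle lists held no gene with a 2-fold difference, against 1.71% of all tested genes. Anterior *hox* genes, which pattern hindbrain and neck, had a median of 0.39, with 15 of 17 above 0. The middle and posterior *hox* lists had medians of 0.18 and 0.16 over 10 genes each. The tail bud list was at 0.03 with 10 of 20 genes above 0, the segmentation list at 0.22 with 13 of 19, and the cell cycle list at 0.11 with 56 of 80. In the second pair the anterior *hox* list was at 0.14.

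Genes of the notochord, the rod under the neural tube that stiffens the embryo, were spread around a median of 0.15, with 31 of 41 above 0. *col11a2*, a fibrillar collagen of the notochord sheath, was called with 703 reads in *stl*-sibling against 306 in WT, and *mxra5a*, a matrix protein, was lower with 11 against 52. *col2a1a*, the main collagen of the sheath, had 5191 against 2727 reads and *col9a1b* 2383 against 1729. *col11a2* and *col2a1a* were far lower in *stl*, at 112 and 579 reads, below both *stl*-sibling and WT. The 19 floor plate and Hedgehog genes, which receive and relay the notochord signal, all lay above 0, with a median of 0.36 and *ptch1*, the Hedgehog receptor and target, at 1001 against 595 reads. None of them was called. They were at 0.29 in *btl*-sibling against WT and at 0.06 in *stl* against *btl*-sibling. Their median coding length was 3069 nt, against 1479 nt for all tested genes. With the trend in coding length described below removed, their median in *stl*-sibling against WT was 0.24, with 18 of 19 above 0.

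Matrix genes outside the notochord had 4 of 68 called, all higher, against 0.892% of all tested genes, and a median of 0.32. With the length trend removed that median was 0.25, with 51 of 68 above 0 in place of 55. *col6a3* and *col6a4a*, chains of collagen VI, a filament that surrounds muscle fibres, had 351 against 139 and 267 against 105 reads in *stl*-sibling against WT. In *stl* against *btl*-sibling they had 438 against 172 and 382 against 103. These 2 therefore stood higher in both libraries of the *stl* line. *thbs2a*, a thrombospondin, had 67 against 28 in *stl*-sibling against WT but 26 against 33 in the second pair. The last of the 4, *timp2a*, an inhibitor of matrix proteases, sat on the threshold with 103 against 46, and had 107 against 55 in the second pair.

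Neural lists were modestly higher. Differentiating neuron genes had a median of 0.32 with 19 of 20 above 0, led by the intermediate filament gene *inab* with 99 reads in *stl*-sibling against 51 in WT, and neural progenitor genes had 0.21 with 32 of 38 above 0. Neither list held a gene called as higher, and *pax5*, above, was the single one lower. In *stl* against *btl*-sibling these lists were at 0.48 and 0.27.

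The list with the lowest median in *stl*-sibling against WT was that of the yolk syncytial layer. Of 25 genes of the yolk syncytial layer and plasma proteins 23 lay below 0, with a median of -0.35 and none called. *tfa*, transferrin, had 89938 reads in *stl*-sibling against 120929 in WT, *fetub*, a fetuin, had 96913 against 126899, and *apobb.1*, an apolipoprotein B of yolk lipoproteins, had 15194 against 19486. Together the list took 32259 CPM in *stl*-sibling and 42549 in WT. The sums in *stl*, *btl*-sibling and *btl* were 32018, 33188 and 52363 CPM, so *btl* was highest. The list was at -0.33 in *btl*-sibling against WT and at 0.02 in *stl* against *btl*-sibling.

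Leukocyte genes had a median of -0.32 with 4 of 18 above 0. *csf3r*, a granulocyte receptor, had 139 reads in *stl*-sibling against 231 in WT, and *mpx*, the neutrophil myeloperoxidase, 3224 against 3798. The highest of the 4 was *csf1ra*, a receptor of macrophages and of yellow pigment cells, with 261 against 134, which is held by the pigment list as well. The leukocyte list was at -0.29 in *btl*-sibling against WT and at 0.29 in *stl* against *btl*-sibling. Erythroid genes stood at 0.01 with *hbae5* alone of 26 called, against 0.820% of all tested genes called lower. The other globin tested, *hbba1*, a beta globin, had 52 against 78 reads, a smaller difference in the same direction, and *alas2*, the first enzyme of haem synthesis in red cells, 2038 against 1765.

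Among 20 genes of endoderm, liver and pancreas 2 were lower, against 0.820% of all tested genes, and the median was -0.13. *fabp10a*, a liver fatty acid binding protein, had 243 reads in *stl*-sibling against 1423 in WT, 6.16-fold lower (5.37 to 7.08), and 216 in *stl* against 928 in *btl*-sibling. *sox32*, which specifies endoderm in zebrafish, had 25 against 74 and 12 against 91. Both were low in both libraries of the *stl* line. Lists of heart at -0.18, epidermis at -0.16 and vessel endothelium at -0.12 had no called gene. With TPM these 3 and the endoderm list moved to -0.05, -0.02, -0.0042 and 0.0001, where the median of all genes was 0.12. On that scale the muscle and pigment lists were at 0.48 and 0.49, and the plasma and leukocyte lists at -0.22 and -0.18.

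Lists of handling and stress, with 17 to 41 tested genes each, held no called gene, against 1.71% of all tested genes. In lists of this size that lies near the overall share. Immediate early genes were at 0.05, heat shock genes at -0.0004, the unfolded protein response at -0.03, hypoxia at -0.03, the p53 response at 0.08 and cholesterol synthesis at -0.10. Clock genes were at 0.06, and *per2*, a light-responsive clock gene, had 679 reads in *stl*-sibling against 1119 in WT, a difference of -0.79. That was the largest in its list and under 2-fold.

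Called genes were spread over the genome. On the 24 linkage groups the share called ran between 0.661% (4 of 605 genes, linkage group 24) and 4.14% (12 of 290, linkage group 23), against 1.71% overall. Of the 256 called genes placed on linkage groups 40 stood next to another called gene among the tested genes. They made 18 runs, of which 13 held genes of 1 direction. Whether this exceeds what position alone would give was not tested, and genes that were not tested can lie between such neighbours. The longest run held 5 genes within 7901051 to 7960015 of linkage group 12. They summed to 5191 reads in *stl*-sibling against 1915 in WT, a log2 ratio of 1.37, and *stl*, *btl*-sibling and *btl* held 3407, 2603 and 161. *LOC108241321* held most of them, with 3541 against 1308 reads. The files pair none of the 5 with a description.

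The other long run held 3 genes at 13239865 to 13260381 of linkage group 7, the USP48 gene *LOC108245934*, *LOC108245936* and the peptidase *LOC112451230*. They summed to 217 reads in *stl*-sibling against 1664 in WT, and to 219 in *stl* against 2837 in *btl*-sibling. All 3 were low in the *stl* line only. *myhb* and its neighbour *LOC108247384* on linkage group 4 made a pair with 3902 against 1557 reads.

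In 5 runs the neighbours differed in opposite directions, and in some of them the sum was nearly level. *LOC108239747* and *LOC108239748* on linkage group 6, both described as the quinone reductase NQO2, had 47 and 6 reads in *stl*-sibling against 0 and 51 in WT. Their sums were 53 and 51, a ratio of 0.988. In the same gene order *stl* held 20 and 21 reads, *btl*-sibling 47 and 62, and *btl* 53 and 58. Only WT had no read of *LOC108239747*, and the sums were not level over the other libraries. *LOC108233745* and *LOC108233746* on linkage group 1, both similar to TRIM16, had 363 and 70 reads in *stl*-sibling against 112 and 657 in WT, with sums of 433 and 769. In *stl* against *btl*-sibling they had 352 and 51 against 99 and 659. Whether reads of 1 neighbour were assigned to the other was not tested, so the single values in these pairs of like description are uncertain.

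A property of the transcripts also moved with the comparison. Genes with longer coding sequences stood higher in *stl*-sibling: with the genes in 10 equal groups by coding length, the median of the longest, from 3842 nt, was 0.17, and that of the shortest, up to 594 nt, was -0.16. Of the 137 genes higher in *stl*-sibling, 30 were in the longest group, against 15 in the shortest. Spearman's rho between the difference and coding length, over 15362 genes that cannot count as replicates, was 0.288 in *stl*-sibling against WT, 0.423 in *btl*-sibling against WT and -0.005 in *stl* against *btl*-sibling. It was seen in the pairs that use the WT library. The calls were repeated after removing the median of 20 length bins, which gave 132 genes were higher and 129 lower, with 230 of the 263 called genes unchanged. The thick filament list, which has a median coding length of 3831 nt, went to a median of 0.75.

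**Figure D5:**
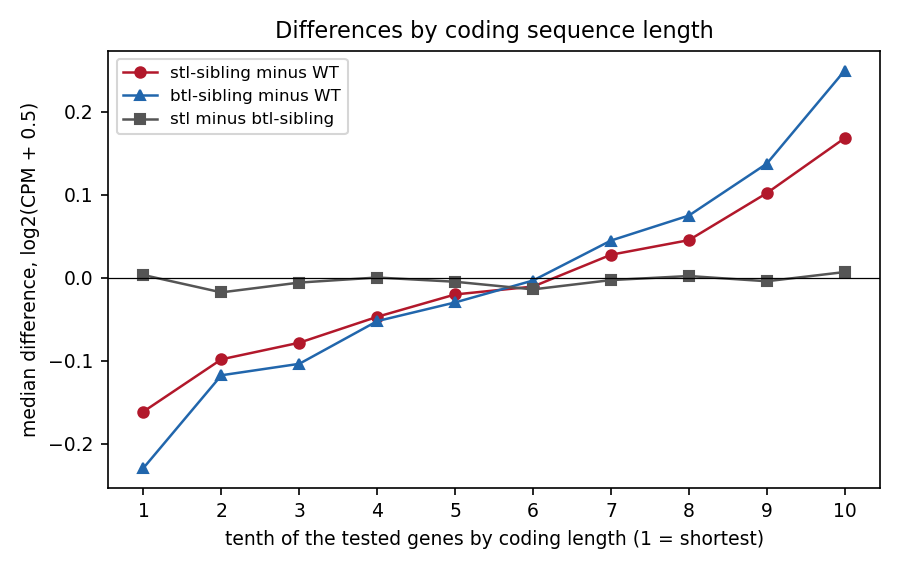
Median difference in log2(CPM + 0.5) in each of 10 equal groups of the tested genes by coding length, shortest at the left, for 3 pairs of libraries. Both pairs against WT climb, *stl*-sibling minus WT between -0.16 and 0.17, and *stl* minus *btl*-sibling stays near 0.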

How the data were processed

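The authors quantified reads with Salmon 1.5.0 against coding sequences of ASM164957v2 and deposited, for each library, expected counts and TPM per coding sequence. The authors' comparison tables (read values, fold changes, probabilities of differential expression and product descriptions) were used for descriptions alone, which cover 3625 genes, so no counts over gene families are given. Here the estimated counts were summed per gene through the protein identifier: 37146 of 37181 coding sequences matched RefSeq genes, and 6956 genes had several, between which Salmon divides reads. Levels were CPM scaled by TMM (edgeR 4.0.16), on log2(CPM + 0.5). Calls at 2-fold were tried on simulated reads with counting error alone, in which some genes were changed 4-fold. The simulation held no variation between pools, so it cannot show whether the calls would repeat in other embryos. With 1 library per group no test across genes was run. Alternatives were other scalings, pseudocounts, filters and thresholds. The genes and lists were chosen with earlier results of these data known. Named genes were taken from the 12 at each end, leading list members, genes at 3 or fewer reads in 1 library and 60 or more in the other, runs of neighbours, stage markers and genes 4-fold the same way in the second pair. Not every gene of these sets is named in the text. Others were chosen after their values were seen. A result on a withheld item is not reported here.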

Additional observations from a re-analysis of the deposited data

Results flagged for a closer look

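Of the 15362 tested genes, 13 were called in opposite directions in *stl*-sibling against WT and *btl*-sibling against WT. The first comparison called 1.71% of tested genes in all and the second 1.36%. Both comparisons use the same WT library, and the difference between them was not tested. Of these genes 9 were lower in *stl*-sibling and higher in *btl*-sibling. The log2 difference was -4.25 in *stl*-sibling and 1.32 in *btl*-sibling for *LOC112451230*, leishmanolysin-like peptidase 2. It was -2.50 and 1.88 for the uncharacterized *LOC112450070*, and -1.58 and 4.41 for *si:ch211-106h4.4*, a protein with MAM and LDL-receptor domains, in the same order. *LOC108242624*, similar to a chitin synthase, stood at -1.37 and 1.03, *prl*, the pituitary hormone prolactin, at -1.25 and 1.19, and *LOC108237080* at -1.13 and 1.24. *LOC108243936*, described as zymogen granule membrane protein 16, stood at -1.05 and 2.06. *corin*, a natriuretic peptide convertase, stood at -1.04 and 2.38, and *LOC108233528*, cartilage intermediate layer protein 2, at -1.04 and 2.402. The 2 CPM filter used all 5 libraries, and *si:ch211-106h4.4*, *prl*, *LOC108243936* and *corin* passed it through the *btl* line. For them a higher level in *btl*-sibling was thus favoured by the filter. Reads in *stl*-sibling against WT were few, 4 against 14 for *corin* and 3 against 20 for *si:ch211-106h4.4*.

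The other 4 genes were higher in *stl*-sibling and lower in *btl*-sibling. *LOC108251477* stood at 1.14 in *stl*-sibling and -1.34 in *btl*-sibling, *LOC108234822* at 1.25 and -1.1997, *LOC108235942* at 1.34 and -1.27, and *LOC108228815* at 1.63 and -6.07.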

How the results depend on the processing

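No paired analysis was possible because each group had 1 library. Against 137 genes higher and 126 lower, the counts were 80 and 77 with a pseudocount of 2 CPM, 270 and 256 without a filter on low levels, 49 and 49 at a mean CPM of at least 10, 32 and 30 at 4-fold, and 62 and 56 where the interval had to leave out 2-fold. Single coding sequences gave 1118 and 993, where Salmon divides the reads of a gene. With other settings the counts stayed within 1.5 times. The 10 muscle genes higher became 22 coding sequences, 1 gene at 4-fold, 2 by the interval, 4 with *btl*-sibling as the reference and 6 without genes of several coding sequences, a setting chosen after seeing the data. The muscle median of 0.39 went to 0.27 with *btl*-sibling as the reference. The 110 genes shared with the second pair became 48 at a mean CPM of at least 10 and 36 at 4-fold. Of the 263 calls, 248 remained with library size alone, 262 with DESeq2 1.42.0 size factors, 200 with TPM and 157 with a pseudocount of 2. With the filter on *stl*-sibling and WT alone 244 remained. For 169 named genes, 874 of 1014 alternative values stayed within the counting interval. Among the named genes that were called, 0 changed sign. That outcome was largely fixed in advance, since a pseudocount cannot change a sign and the scalings moved the median of all genes to 0.12 at most. Sign changes were not counted for named genes under 2-fold, of which *noto* went from -0.08 to 0.01 with the length trend removed. Genes with few reads set the limit: below 4-fold many intervals reach across 2-fold.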
